A study of Mus musculus with 18 samples.

Results

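The proteasome subunit genes were followed across resting, antigen-stimulated and drug-stimulated CD4 T cells of naive and tolerized mice. The members were all genes whose symbol starts with Psma, Psmb, Psmc, Psmd, Psme, Psmf or Psmg followed by a digit, leaving out pseudogenes named with -ps, with a mean count of at least 10 over the 18 libraries. Of 37991 genes listed in the count files, 47 met this rule, and all 47 also passed the low-count filter of the test across 17240 genes. The 4 entries with a fitting symbol but too few counts, and 1 member that is no subunit despite its name, are described at the end.

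The proteasome is the protease that destroys proteins tagged with ubiquitin. Its barrel-shaped core particle is built from rings of alpha subunits (Psma) around rings of beta subunits (Psmb), and in the inner rings Psmb5, Psmb6 and Psmb7 carry the cutting sites. A regulatory particle of ATPases (Psmc) and non-ATPase subunits (Psmd) binds ubiquitin, unfolds the substrate and feeds it into the core, while activator caps (Psme), an inhibitor (Psmf1) and assembly chaperones (Psmg and some Psmd genes) act on the core or on its construction. Lymphocytes express inducible catalytic subunits, Psmb8, Psmb9 and Psmb10, which replace Psmb5, Psmb6 and Psmb7 to form the immunoproteasome, known for cutting peptides that suit presentation on MHC class I.

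All libraries came from Tg4-H2u mice, whose transgenic TCR recognizes a myelin basic protein peptide, and all were made from splenic CD4 T cells enriched with a magnetic kit. Mice were tolerized (T) by 7 subcutaneous injections of escalating amounts of the 4Y peptide, given 3 or 4 days apart, and control mice (N, predominantly naive cells) received PBS on the same schedule. There were 6 groups of 3 libraries: N0 and T0 were taken 2 h after a last injection of PBS, NAg and TAg 2 h after a last injection of the 4Y peptide antigen (Ag), and NPI and TPI after 2 h with PMA and the calcium ionophore A23187 (PI) in culture. The labels give the injection scheme for all samples, while the methods spell it out for the resting and Ag groups and not for NPI and TPI. The mice were 6 to 12 weeks old and of both sexes, and nothing in the sources used here ties a library to a single animal, so p-values measure the spread between libraries.

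The libraries held 10758571 to 24119489 counts on genes, with a median of 12268935.5. The 6 T cell markers checked (Cd3d, Cd3e, Cd3g, Cd4, Lck and Cd2) were counted in every library, and Cd4 had a median normalized count of 4613 against 18.9 for Cd8a. The summed T cell markers were lower after Ag: 14419 to 15604 normalized counts in NAg against 25275 to 26682 in N0, and 17338 to 18980 in TAg against 20925 to 24068 in T0. The 8 neutrophil markers summed to 1684 to 3046 in T0, 2125 to 3651 in TAg and 396 to 673 in TPI, above every naive group (at most 339), and the 7 macrophage markers reached 1684 in 1 NAg library against at most 436 in every other group. Reads of Y-linked genes were present in all 3 libraries of NPI and of TPI, in 2 of T0, in 1 of TAg and in none of N0 or NAg, so the sex of the mice moved with PI in naive cells. The PI groups also differed from the resting groups by culture. In such bulk libraries fewer cells of a type and less RNA per cell cannot be told apart.

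The promoters of 4 members are printed because their genes mark the patterns described here. Psme3 had the largest rise of any member after Ag, and Psmd11 rose with both stimuli. Psmb5, a constitutive catalytic subunit, passed the test with Ag and, under the main (TMM) scaling, not with PI. Its inducible counterpart Psmb8 fell with Ag in naive cells. The sequences are RefSeq promoter windows of build GRCm38.p6, from 250 bases before to 50 bases after the annotated start, read 5′ to 3′ along the gene's strand. Capitals mark matches on either strand to the letters of 6 motifs: an antioxidant response element (TGACNNNGC, the kind of site bound by NRF1 and NRF2), a CCAAT box (CCAAT), an interferon-stimulated response element, a κB site, an AP-1 site (TGANTCA) and an ETS site (CCGGAAG). The windows lie at chr11:101315963-101316262 on the plus strand (Psme3), chr11:80428365-80428664 on the plus strand (Psmd11), chr14:54617946-54618245 on the minus strand (Psmb5) and chr17:34197945-34198244 on the plus strand (Psmb8).
Psme3: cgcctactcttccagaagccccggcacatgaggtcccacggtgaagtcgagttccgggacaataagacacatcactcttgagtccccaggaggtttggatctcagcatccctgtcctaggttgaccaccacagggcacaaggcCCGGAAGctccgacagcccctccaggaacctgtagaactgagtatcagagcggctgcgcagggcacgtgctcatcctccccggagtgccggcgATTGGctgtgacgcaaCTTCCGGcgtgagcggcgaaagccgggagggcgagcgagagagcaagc
Psmd11: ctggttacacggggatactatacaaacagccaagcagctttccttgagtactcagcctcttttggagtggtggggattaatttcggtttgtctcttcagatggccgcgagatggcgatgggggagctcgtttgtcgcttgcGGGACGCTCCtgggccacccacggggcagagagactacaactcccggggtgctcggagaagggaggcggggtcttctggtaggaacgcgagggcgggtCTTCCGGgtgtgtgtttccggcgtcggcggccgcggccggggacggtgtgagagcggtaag
Psmb5: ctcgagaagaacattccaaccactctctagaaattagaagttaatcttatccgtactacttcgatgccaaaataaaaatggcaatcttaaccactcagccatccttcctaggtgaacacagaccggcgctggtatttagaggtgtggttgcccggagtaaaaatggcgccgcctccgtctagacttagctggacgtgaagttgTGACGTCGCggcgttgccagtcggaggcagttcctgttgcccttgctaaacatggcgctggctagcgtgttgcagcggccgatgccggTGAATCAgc
Psmb8: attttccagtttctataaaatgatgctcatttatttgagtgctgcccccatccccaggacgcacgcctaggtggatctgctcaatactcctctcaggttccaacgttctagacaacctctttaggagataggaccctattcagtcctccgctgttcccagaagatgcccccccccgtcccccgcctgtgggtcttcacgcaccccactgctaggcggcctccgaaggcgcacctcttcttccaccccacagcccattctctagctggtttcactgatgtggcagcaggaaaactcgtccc

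In these windows Psme3 held 2 ETS matches and a CCAAT match in reverse, and Psmd11 an ETS and a κB match. Psmb5 held an antioxidant response element match and an AP-1 match, and Psmb8 held none of the 6. Windows were at hand for 40 of the 47 members and for 27025 genes in all, where a gene with several windows counts once if any of them holds the motif. The ETS letters were in 15 of 40 member promoters (37.5%) against 9.93% of all genes, and those of the interferon-stimulated response element in 5 of 40 (12.5%) against 3.99%. The antioxidant response element was in 6 of 40 (15%), close to the 14% of all genes, and the κB letters in 10 of 40 (25%) against 22.9%. CCAAT was in 14 of 40 (35%) against 41.1%, and AP-1 in 2 of 40 (5%) against 8.97%. These are counts of letters in a window and not of bound factors. Members had to reach a minimum count, whereas the 27025 genes were taken without one, so the sets are unlike in this respect. No share was formed over the tested genes only.

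The first question was how the genes responded to Ag in naive cells. Of the 47 members, 40 rose and 5 fell in NAg against N0 (edgeR quasi-likelihood test, Benjamini-Hochberg adjusted p under 0.05), whereas 32.1% of all tested genes were called higher and 33.4% lower. The median log2 fold change was 1.01 over the members and 0 over all genes. With the study's size limits added, a fold of at least 2 and a mean of over 50 normalized counts in the higher group, 24 members were called higher and none lower, against 14.2% and 16.2% of all genes. The 2 groups did not overlap for 44 members and for 68.1% of all genes. The members that did not pass were Psme4 (-0.05, adjusted p = 0.553 in edgeR) and Psmb11 (0.45, adjusted p = 0.0643 in edgeR). The fold changes are on the TMM scale. Scaled to total counts with no further factor, 32 members were higher and 7 lower, with a median of 0.61 over the members and -0.40 over all genes.

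The same question was asked of tolerized cells. In TAg against T0, 40 members rose and none fell by the adjusted p in edgeR, against 29.9% of all genes higher and 29.8% lower, and no member fell by an unadjusted p under 0.05 either. DESeq2 also called 0 lower. The median log2 fold change was 1.02 over the members and -0.05 over all genes, and 25 members passed the size limits, against 12.1% of all genes higher and 11.3% lower. The groups did not overlap for 41 members and for 64.5% of all genes. The 40 members that rose in tolerized cells were the 40 that rose in naive cells. On total counts 4 members were called lower in tolerized cells, with a median of 0.69 over the members and -0.39 over all genes.

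**Figure D1:**
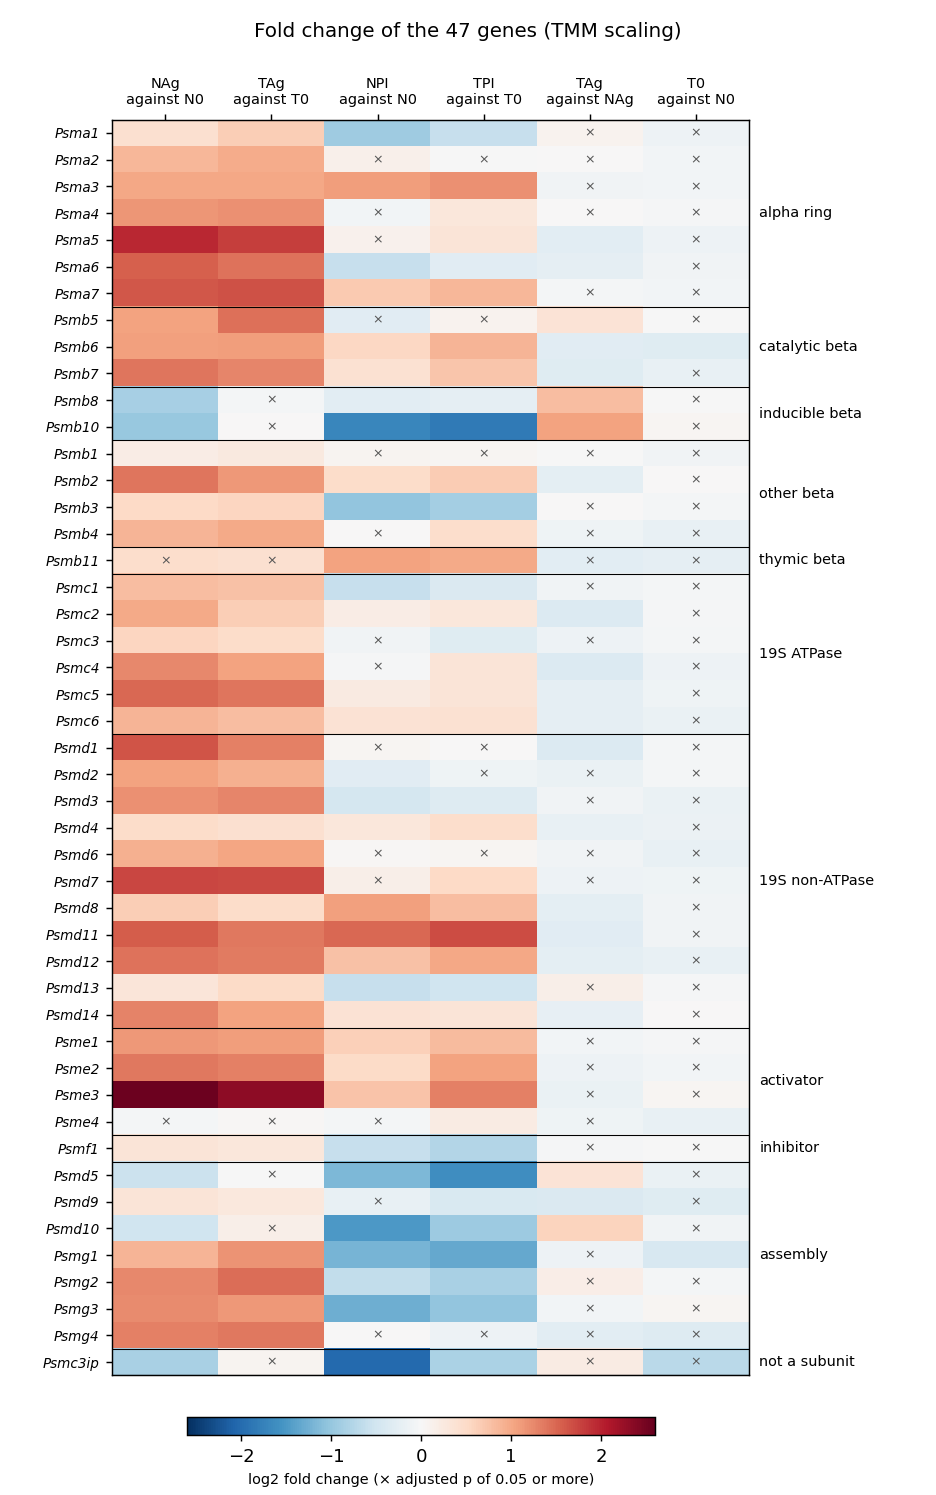
Log2 fold change (colour, TMM scaling) of each of the 47 genes, in rows grouped by role, in 6 comparisons in columns, with 3 libraries a group. A cross marks an adjusted p of 0.05 or more. In the 2 Ag columns 40 genes each were called higher, and Psmb8 and Psmb10 are negative in NAg against N0. The mixed colours of the PI columns hold for TMM scaling. On total counts 36 and 35 genes were called lower after PI, where the median over all tested genes was -0.64 and -0.90.

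All 7 Psma members, which form the core particle's alpha ring, were higher after Ag in both cell states. Psma5 had 376, 341 and 359 normalized counts in the N0 libraries, 1290, 1387 and 1492 in NAg, 305, 315 and 368 in T0, and 1109, 1149 and 1183 in TAg. The groups did not overlap, and the log2 fold change was 1.95 ± 0.08 (SE) in naive and 1.80 ± 0.08 in tolerized cells (adjusted p = 1.57e-16 and 1.32e-15, edgeR). Psma7 followed with 1.62 and 1.65, and Psma1 had the smallest rise with 0.42 and 0.65, which in naive cells was 0.019 on total counts (adjusted p = 0.827, edgeR).

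The 3 constitutive catalytic genes also rose in both cell states. Psmb5 (ENSMUSG00000022193, chr14:55232644-55236851, mm9, minus strand), which encodes the chymotrypsin-like subunit, had 191, 133 and 173 normalized counts in N0 and 325, 358 and 348 in NAg, a log2 fold change of 1.05 ± 0.13 (adjusted p = 1.29e-07, edgeR). In tolerized cells it went from 156, 144 and 193 in T0 to 447, 460 and 417 in TAg, a change of 1.43 ± 0.13 (adjusted p = 6.99e-10, edgeR), and TAg lay above NAg by 0.36 (adjusted p = 0.0243, edgeR). The last call was kept in 9 of 15 alternative fits, and ended with upper-quartile scaling, with marker covariates, and without TAg replicate 1, TAg replicate 2, NAg replicate 1 or NAg replicate 3 (0.21 to 0.37, adjusted p = 0.0536 to 0.179, edgeR). The caspase-like subunit gene Psmb6 rose by 1.06 and 1.08, and the trypsin-like subunit gene Psmb7 by 1.40 and 1.27. Of the non-catalytic beta genes, Psmb2 rose by 1.39 and 1.12, while Psmb1 moved least, by 0.19 and 0.26, and went down on total counts (-0.21 and -0.067).

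The inducible catalytic genes did not follow. Psmb8 (ENSMUSG00000024338, chr17:34334666-34338399, mm9, plus strand), the counterpart of Psmb5, had 2110, 1782 and 2117 normalized counts in N0 and 1160, 1057 and 1079 in NAg. In tolerized cells it had 1810, 1877 and 2241 in T0 and 1993, 1879 and 1889 in TAg. The naive groups stood apart, a log2 fold change of -0.87 ± 0.09 (adjusted p = 4.97e-09, edgeR), and the tolerized groups overlapped (-0.04 ± 0.09, adjusted p = 0.713, edgeR). The difference between the responses was itself tested and was 0.83 ± 0.12 (adjusted p = 3.39e-05, edgeR).

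Psmb10 (ENSMUSG00000031897, chr8:108459628-108462292, mm9, minus strand), the counterpart of Psmb7, showed the same pattern. It had 619, 451 and 579 normalized counts in N0 and 301, 240 and 294 in NAg, against 535, 502 and 674 in T0 and 598, 607 and 512 in TAg. The log2 fold change was -0.98 ± 0.13 in naive cells (adjusted p = 5.74e-07, edgeR), and the tolerized groups overlapped (adjusted p = 0.978, edgeR). The responses differed by 0.99 ± 0.18 (adjusted p = 0.000360, edgeR). Both differences between responses passed in each of 21 alternative fits, including that with marker covariates and those without any 1 library, with a range of 0.64 to 0.95 for Psmb8 and 0.80 to 1.20 for Psmb10. After Ag, TAg lay above NAg by 0.81 for Psmb8 and 1.04 for Psmb10 (adjusted p = 1.88e-07 and 1.86e-06, edgeR), and at rest neither differed past the threshold between T0 and N0. On total counts both were lower in TAg than in T0, at -0.37 for Psmb8 and -0.32 for Psmb10 (adjusted p = 0.000217 and 0.0270, edgeR). The response of T cell markers differed between cell states in the same direction: it was higher in tolerized cells for 5 of the 6, with a median difference of 0.89, and their part in the result was not tested.

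**Figure D2:**
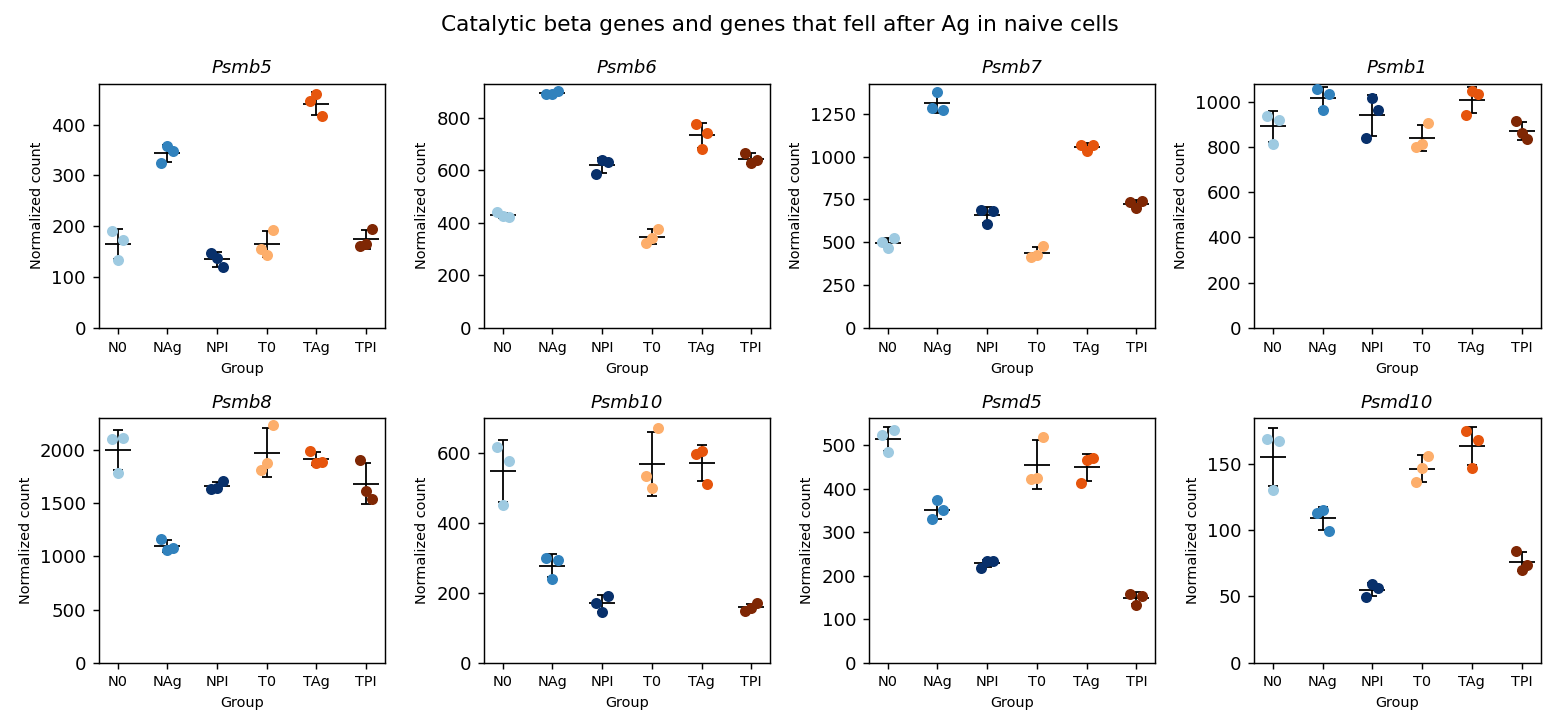
Normalized counts (TMM scaling, y axis from 0) of 8 genes in each library, by group on the x axis, with points for the 3 libraries and bars for the mean ± SD. Psmb5, Psmb6 and Psmb7 are higher in NAg and TAg than at rest, while Psmb8, Psmb10, Psmd5 and Psmd10 are lower in NAg than in N0 and overlap between TAg and T0.

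The balance of inducible to constitutive catalytic transcripts was compared per kb of exon, so that it depends on no library scaling. The level of a ratio rests on the length used, whereas differences between groups do not. Psmb8 has 2736 bases of joined exons and a longest transcript of 1907, and Psmb5 has 922 and 871. There were 3.72, 4.53 and 4.13 Psmb8 counts for each Psmb5 count per kb in N0, and 3.92, 4.39 and 3.92 in T0. After Ag the ratio was 1.20, 0.994 and 1.05 in NAg and 1.5, 1.38 and 1.53 in TAg. The resting and Ag groups did not overlap in either cell state, and every TAg library lay above every NAg library. The mean log2 ratio differed by -1.93 in NAg against N0, -1.47 in TAg against T0 and 0.44 in TAg against NAg. Each has an exact two-sided permutation p of 0.1, the smallest that 3 against 3 libraries can give.

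The Psmb10 to Psmb7 ratio was 1.18, 0.92 and 1.06 in N0 and 1.24, 1.12 and 1.35 in T0. It was 0.224, 0.166 and 0.221 in NAg and 0.534, 0.562 and 0.458 in TAg, so that TAg stood above NAg by 1.35 on the log2 scale (exact permutation p = 0.1). After PI the 2 ratios parted: Psmb8 to Psmb5 was 3.73, 4.03 and 4.85 in NPI and 4.00, 3.28 and 2.66 in TPI, overlapping with rest in both cell states, whereas Psmb10 to Psmb7 was 0.237, 0.230 and 0.268 in NPI and 0.194, 0.215 and 0.220 in TPI, below every resting library.

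Both parts of the regulatory particle were higher after Ag on the TMM scale. All 6 ATPase genes were higher in both cell states, led by Psmc5 (1.5 and 1.39) and Psmc4 (1.26 and 1.04), with Psmc3 moving least (0.56 and 0.48; 0.15 in both cell states on total counts, adjusted p = 0.119 and 0.125, edgeR). All 11 non-ATPase subunit genes were higher as well, led by Psmd7 (1.74 and 1.72), Psmd1 (1.64 and 1.32) and Psmd11 (1.57 and 1.38). Among the smaller changes were those of Psmd13 (0.31 and 0.50), of the ubiquitin receptor gene Psmd4 (0.47 and 0.42) and of Psmd8 (0.64 and 0.47). On total counts Psmd13 was at -0.096 in naive cells, and neither Psmd4 (0.066 and 0.087) nor Psmd8 in tolerized cells (0.14) passed. Psmc2 (-0.34 ± 0.09) and Psmd1 (-0.32 ± 0.11) rose less in tolerized than in naive cells (adjusted p = 0.0104 and 0.0366, edgeR); the Psmd1 difference was past the threshold in 10 of 21 alternative fits.

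Among the activators Psme3 (ENSMUSG00000078652, chr11:101177527-101184851, mm9, plus strand), which encodes the nuclear PA28γ cap, had the largest rise of any member. It had 1151, 1075 and 1121 normalized counts in N0 and 6557, 6580 and 6560 in NAg, and 1134, 1105 and 1243 in T0 and 5523, 5493 and 6412 in TAg. The log2 fold change was 2.56 ± 0.08 in naive and 2.32 ± 0.08 in tolerized cells (adjusted p = 5.04e-19 and 4.19e-18, edgeR). Per kb of exon it went from 378 normalized counts in N0 to 2226 in NAg. It was below Psme1 and Psme2 in N0 (609 and 598) and above them in NAg (1330 and 1545). The order against Psme2 in NAg rests on the length used and does not hold for the longest transcript. Psme2 has 1764 bases of joined exons and a longest transcript of 962, and Psme3 has 2949 and 2664. Psme1 and Psme2, which encode the PA28αβ cap linked to interferon responses, rose by 1.13 and 1.10 and by 1.37 and 1.31. Psme4, the PA200 activator, did not pass the test after Ag (-0.05 and 0.03). The inhibitor gene Psmf1 rose by 0.33 and 0.30, which on total counts was -0.078 and -0.032.

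A near copy limits the value for Psme2. The pseudogene Psme2b-ps, which the rule leaves out, holds 59.3% of the 50-base words of the Psme2 transcript and could take its reads. It went the other way after Ag, with 295, 222 and 244 normalized counts in N0 and 159, 136 and 170 in NAg. Psme2 had 1098, 980 and 1086 in N0 and 2837, 2627 and 2711 in NAg.

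The assembly genes split. The Psmg genes, whose products help build the alpha ring, rose after Ag: Psmg1 by 0.89 and 1.16, Psmg2 by 1.24 and 1.46, Psmg3 by 1.24 and 1.12 and Psmg4 by 1.30 and 1.37. Of the 3 chaperones of the regulatory particle's ATPase ring, Psmd9 was higher by 0.33 and 0.27 (-0.074 and -0.058 on total counts), a call kept in 10 of 15 alternative fits in naive and in 2 of 15 in tolerized cells, while Psmd5 and Psmd10 fell in naive cells. Psmd5 had 525, 484 and 535 normalized counts in N0 and 330, 374 and 351 in NAg (-0.55 ± 0.10, adjusted p = 2.22e-05, edgeR), and it had 423, 425 and 520 in T0 and 414, 466 and 470 in TAg. Psmd10, on the X chromosome, had 169, 130 and 167 in N0 and 113, 115 and 99 in NAg (-0.52 ± 0.14, adjusted p = 0.00229, edgeR), and it had 136, 147 and 156 in T0 and 175, 147 and 168 in TAg. The tolerized groups overlapped for both, and the responses differed by 0.53 ± 0.14 for Psmd5 and 0.67 ± 0.19 for Psmd10 (adjusted p = 0.00610 and 0.0144, edgeR). Under upper-quartile scaling these 2 differences were 0.34 and 0.48 (adjusted p = 0.0581 and 0.0755, edgeR).

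**Figure D3:**
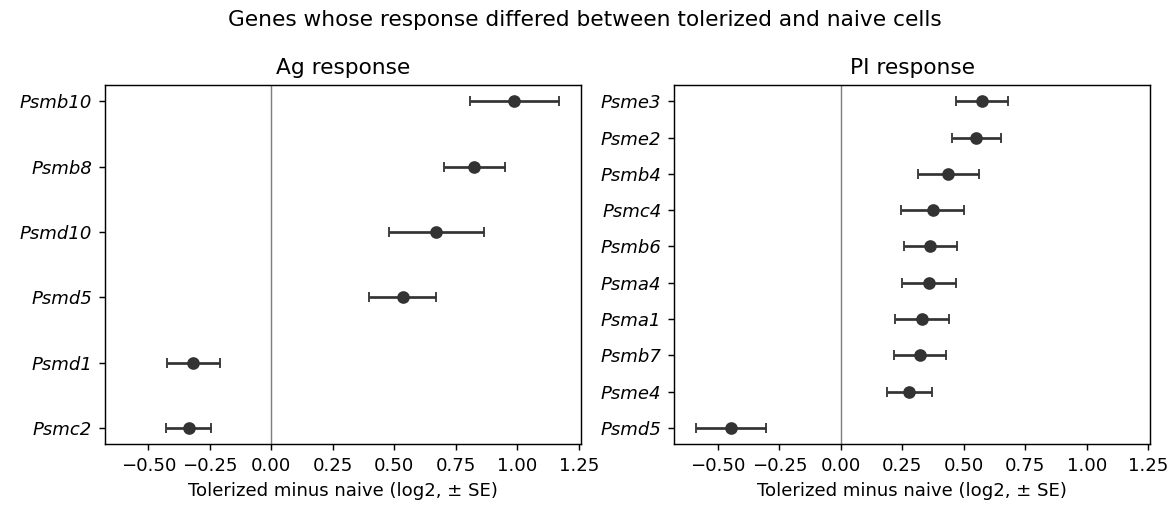
Difference between the tolerized and the naive response (log2, x axis, point and SE) for each gene past an adjusted p of 0.05, with the Ag response on the left and the PI response on the right, from 3 libraries a group. Psmb8 and Psmb10 lie farthest to the right for Ag at 0.83 and 0.99, and Psme2 and Psme3 for PI at 0.55 and 0.57.

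Counted over all members, 4 responses to Ag were higher and 2 lower in tolerized than in naive cells, against 14.6% and 7.09% of all genes. Upper-quartile scaling gave 2 higher and 13 lower, with a median difference of -0.22 over the members and -0.14 over all genes. In the direct comparison of TAg with NAg, 5 members were higher (Psmb5, Psmb8, Psmb10, Psmd5 and Psmd10) and 16 lower, against 20.9% and 18.5% of all genes. Upper-quartile scaling gave 3 and 31, total counts 10 and 2, and a fit with marker scores as covariates 10 lower. The shares of all genes in this paragraph hold for the main fit only. At rest T0 and N0 differed little: no member was higher and 3 were lower, against 8.42% and 12% of all genes. These were Psmb6 (-0.31), Psmg1 (-0.41) and Psme4 (-0.19), and on total counts or with marker scores as covariates none was lower. Without T0 replicate 3 there were 7 lower, and without N0 replicate 3 there was 1.

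PI, which bypasses the TCR, did not give a common shift. In NPI against N0, 17 members rose and 16 fell, against 28.6% of all genes higher and 32.7% lower, with a median log2 fold change of 0.01 over the members and -0.06 over all genes. In NPI 4 members passed the size limits upward and 6 downward, against 10.1% and 10.3% of all genes, and the groups did not overlap for 34 members and 66.4% of all genes. In TPI against T0, 23 rose and 17 fell, against 32% and 36.3%, with medians of 0.09 and -0.10. There 4 passed the size limits in each direction, against 13.3% and 13.7%, and the groups did not overlap for 39 members and 72.5% of all genes. On total counts these splits became 6 and 36 in naive and 5 and 35 in tolerized cells. The medians there were -0.57 and -0.70 over the members and -0.64 and -0.90 over all genes. The shares of all genes given above hold for the main fit with TMM scaling only. Every member that fell on the TMM scale was also called lower on total counts (16 in naive and 17 in tolerized cells), whereas of those that rose 6 of 17 and 5 of 23 were still called higher. With covariates for erythroid and myeloid markers, 9 members were higher in naive cells, and 10 were higher and 9 lower in tolerized cells. All 7 macrophage markers were lower in NPI than in N0. The PI libraries were also less even: the 10 most counted genes held 7.99% to 10.5% of counts in NPI and TPI and 4.98% to 6.13% in the other groups.

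Psmd11 (ENSMUSG00000017428, chr11:80242117-80286750, mm9, plus strand), a subunit gene of the regulatory particle's lid, rose with PI on both scales. It had 984, 1042 and 947 normalized counts in N0 and 2751, 2884 and 2788 in NPI, and 924, 939 and 913 in T0 and 2994, 3135 and 2858 in TPI. The log2 fold change was 1.5 ± 0.06 and 1.69 ± 0.06 (adjusted p = 6.13e-16 and 3.37e-17, edgeR), and 0.93 and 0.89 on total counts. Psma3 rose by 1.09 and 1.18 (0.52 and 0.38 on total counts), and Psmd8 by 1.06 and 0.81 (0.48 on total counts in naive cells, and 0.015 with adjusted p = 0.871 in tolerized cells, edgeR). Psme3 rose by 0.74 and 1.31 (0.16 and 0.51 on total counts). These 4 and Psmd12, Psmb11 and Psme2 were the only members called higher after PI on total counts in naive or tolerized cells.

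Leaving aside Psmc3ip, which is no subunit (-2.02 and -0.82), the falls after PI were deepest among assembly genes and Psmb10. Psmb10 fell from 619, 451 and 579 normalized counts in N0 to 171, 146 and 192 in NPI, and from 535, 502 and 674 in T0 to 149, 158 and 170 in TPI. The changes were -1.69 ± 0.14 and -1.84 ± 0.14 (adjusted p = 2.36e-10 and 3.05e-11, edgeR). Psmg1 had 167, 153 and 176 in N0 and 69.7, 67.1 and 77.2 in NPI, and 115, 127 and 130 in T0 and 45.2, 54.9 and 47.9 in TPI (-1.21 and -1.34). Psmd5 fell by 1.17 and 1.62 and Psmd10 by 1.5 and 0.94 on the log2 scale. Of the 7 assembly genes, 5 fell in naive and 6 in tolerized cells and none rose. The inhibitor gene Psmf1 changed by -0.60 and -0.76, and Psmb3 by -1.03 and -0.89. Psmb5 did not pass after PI on the TMM scale. On total counts it was lower, at -0.88 in naive and -0.70 in tolerized cells (adjusted p = 6.21e-06 and 5.66e-05, edgeR). In the other classes the lowest were Psma1 (-0.92 and -0.59) and Psma6 (-0.60 and -0.29) of the alpha ring, Psmc1 (-0.61 and -0.38) of the ATPases, and Psmd13 (-0.60 and -0.52) and Psmd3 (-0.46 and -0.33) of the non-ATPase subunits.

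**Figure D4:**
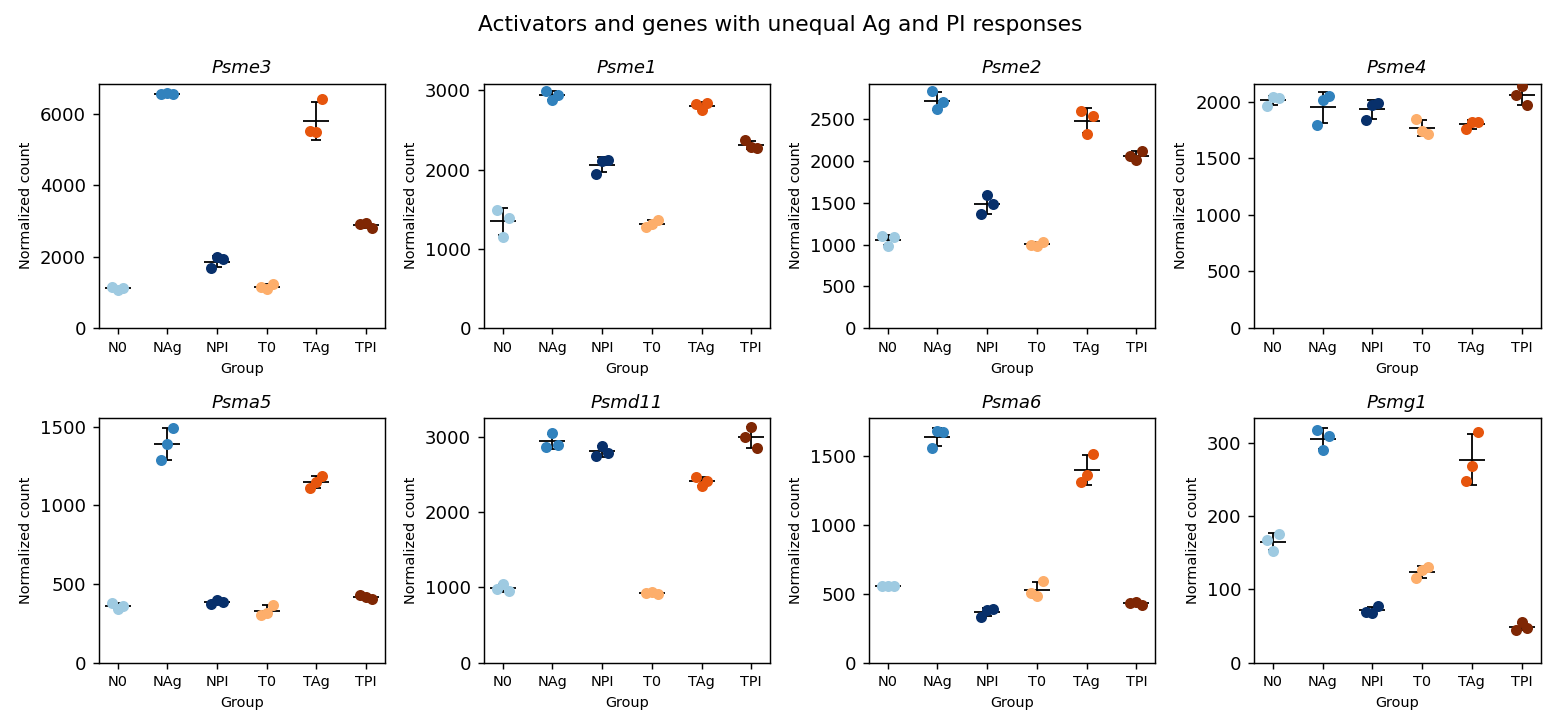
Normalized counts (TMM scaling, y axis from 0) of the 4 activator genes and of Psma5, Psmd11, Psma6 and Psmg1 in each library, by group on the x axis, with points for the 3 libraries and bars for the mean ± SD. Psma6 and Psmg1 are higher in the Ag groups and lower in the PI groups than at rest, and Psma5 reaches 1109 to 1492 after Ag and 373 to 427 after PI, while Psmd11 is at 2751 to 3135 in both PI groups, next to 2345 to 3058 in the Ag groups.

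The 2 stimuli were set against each other directly, a comparison added after the data were seen. In NPI against NAg, 39 members were lower and 3 higher, against 31% and 33.5% of all genes, with a median log2 difference of -0.92 over the members and 0.08 over all genes. In TPI against TAg, 40 were lower and 5 higher, against 32.3% and 31.5%, with medians of -0.90 and 0.01. The largest differences in naive cells were among assembly and alpha ring genes: Psmg3 (-2.51), Psma6 (-2.15) and Psmg1 (-2.09). Psmd11 did not pass in naive cells (-0.07, adjusted p = 0.347, edgeR) and was higher in TPI than in TAg by 0.31 (adjusted p = 7.01e-05, edgeR), which on total counts was -0.15 (adjusted p = 0.0262, edgeR). Psmd8 was higher after PI than after Ag by 0.42 and 0.34 (-0.12 in tolerized cells on total counts). On total counts no member was higher in TPI than in TAg. Psmb8 was higher in NPI than in NAg by 0.60. Ag was given in vivo and PI in culture, so stimulus, route and sex cannot be told apart here.

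The PI responses of tolerized and naive cells differed for 10 members, 9 higher and 1 lower in tolerized cells, against 12.7% and 7.52% of all genes. The largest were Psme3 (0.57 ± 0.11, adjusted p = 0.000303, edgeR) and Psme2 (0.55 ± 0.10, adjusted p = 0.000261, edgeR), which passed in each of 21 alternative fits. Psme3 had 1679, 1986 and 1922 normalized counts in NPI and 2928, 2932 and 2793 in TPI, with no overlap. The others were Psmb4 (0.44), Psmc4 (0.37), Psmb6 (0.36), Psma4 (0.36), Psma1 (0.33), Psmb7 (0.32) and Psme4 (0.28), and Psmd5 went the other way (-0.45). On total counts the split was 2 higher and 7 lower, and with Y-linked reads as a covariate 4 were higher. A fit of the 4 groups alone gave 3 higher and 2 lower, and 14 were higher without T0 replicate 3 or without N0 replicate 2. TPI was above NPI for 9 members and below for 7, against 18.2% and 19.7% of all genes, and the split was 3 and 14 on total counts and 1 and 2 with marker scores as covariates.

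Summed over the 47 genes, the level followed Ag. The libraries held 30895, 28531 and 30571 summed normalized counts in N0 and 58755, 61617 and 61369 in NAg, and 27165, 27521 and 30020 in T0 and 55540, 54771 and 57040 in TAg. The sums were 33788, 34810 and 34708 in NPI and 37601, 36644 and 36120 in TPI. Each stimulated group lay above its resting group with no overlap on this scale, with mean log2 differences of 1.01 (NAg), 0.98 (TAg), 0.20 (NPI) and 0.38 (TPI). As a share of all gene counts, the order of PI and rest turned: the members took 0.254% to 0.281% in N0, 0.205% to 0.213% in NPI, 0.273% to 0.274% in T0 and 0.203% to 0.206% in TPI. The Ag groups stayed above rest on that scale, with 0.411% to 0.414% in NAg and 0.421% to 0.442% in TAg.

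**Figure D5:**
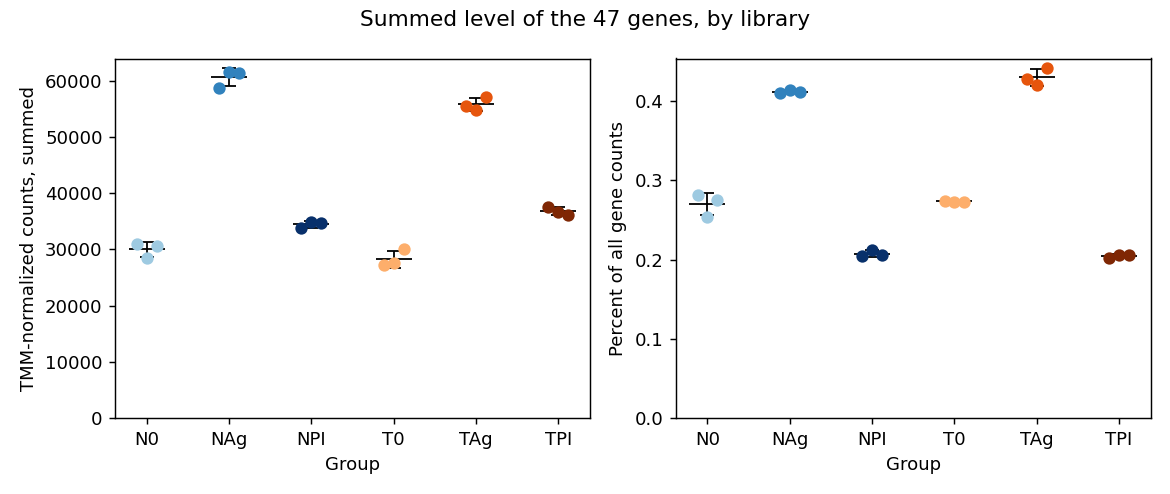
Sum over the 47 genes in each library by group, as TMM-normalized counts on the left and as a percent of all gene counts on the right, with points for the 3 libraries and bars for the mean ± SD. NAg and TAg stand above every other library on both scales, while the PI groups stand above rest on the left and below it on the right.

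Genes that work with the proteasome but are not in the family were counted from a separate list of 26, of which 25 were tested. After Ag 20 were higher and 2 lower in naive cells, and 19 and 2 in tolerized cells, with medians of 0.81 and 0.75, where 32.1% and 33.4% of all tested genes were called in naive and 29.9% and 29.8% in tolerized cells. Nfe2l1, which encodes NRF1, the transcription factor known for driving proteasome genes, had 1169, 1093 and 1044 normalized counts in N0 and 2668, 2890 and 2974 in NAg, a log2 change of 1.37, and it rose by 1.22 in tolerized cells. Ngly1, the deglycosylase that matures NRF1, went the other way (-1.55 and -1.10), and its response differed between cell states by 0.45 ± 0.14 (adjusted p = 0.0180, edgeR). Pomp, the chaperone that matures the core, rose by 1.32 and 1.25, and the shuttle factor genes Ubqln4 and Rad23b by 2.14 and 2.0 and by 1.54 and 1.33. After PI, Pomp changed by -0.25 in naive cells and did not pass in tolerized cells (-0.15). Nfe2l1 had 1316, 1487 and 1418 normalized counts in NPI, above every N0 library. It had 959, 982 and 1098 in T0 and 1958, 1994 and 1996 in TPI. The part of Nfe2l1 in the changes of the members was not tested. All changes of this list are on the TMM scale. On total counts the median over all genes was -0.64 in NPI against N0 and -0.90 in TPI against T0. PI raised Ubb (1.58 and 1.52), Zfand5 (1.69 and 1.68) and Zfand2a (2.33 and 1.29), with 15 of the list higher and 6 lower in naive and 16 and 3 in tolerized cells, against 28.6% and 32.7% and against 32% and 36.3% of all tested genes.

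Of 12 genes of MHC class I presentation, 7 rose and 3 fell after Ag in naive cells, and 11 rose and none fell in tolerized cells, with medians of 0.35 and 0.60. Of all tested genes, 32.1% rose and 33.4% fell in naive and 29.9% and 29.8% in tolerized cells. These calls are on the TMM scale only. On total counts the median over all genes was -0.40 in NAg against N0 and -0.39 in TAg against T0. Tap2, a peptide transporter gene beside Psmb8 and Psmb9, had 2698, 2504 and 2687 normalized counts in N0, 1545, 1355 and 1303 in NAg, 2385, 2265 and 2511 in T0 and 2676, 2476 and 2496 in TAg. Its response differed between cell states by 1.0 ± 0.11 (adjusted p = 4.59e-07, edgeR), beside 0.83 for Psmb8 and 0.99 for Psmb10. Tap1 rose by 0.49 and 0.76, and B2m by 0.80 and 0.75. The neutrophil and macrophage marker sums given above moved with these groups. With covariates for erythroid and myeloid marker scores, the Psmb8 and Psmb10 differences kept their direction and passed. Such scores cannot separate cell content from group, and the part of other cells in these differences was not tested.

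Some values are limited by the annotation. Psmb9, the third inducible subunit gene, is listed under 2 gene models at chr17:34318932-34324697 and chr17:34318933-34324709 (mm9) that cover the same exons, and their mean counts were 0 and 0.222. It could therefore not be measured, and no ratio to Psmb6 was formed. Psma8 had a mean of 1.89, and a second, short Psmd14 model had none. Just above the minimum were Psmc3ip, with a mean count of 15.3, which encodes a meiotic recombination factor and no subunit, and Psmb11, with 63.4, the thymic catalytic subunit. Psmc3ip had 31.7, 20.9 and 28.8 normalized counts in N0 and 19.2, 16.4 and 9.90 in NAg, and its call was kept in 7 of 15 alternative fits. Psmb11 did not pass after Ag and rose after PI by 1.06 and 0.98. On total counts the tolerized change was 0.18 (adjusted p = 0.452, edgeR), and with marker covariates neither passed (adjusted p = 0.0661 and 0.126, edgeR). Without both genes the summed level moved by less than the spread between libraries in every comparison. Whether reads were assigned by strand is not given in the sources used here, and Psma4, Psma5, Psmb7, Psmb8, Psmc3, Psmc3ip, Psmd1, Psmd3, Psmd13 and Psme1 overlap exons of other genes on the opposite strand, by 6 to 385 bases. Psmd1 also shares 405 bases of exon with Armc9 on its own strand.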

How the data were processed

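RNA was sequenced from splenic CD4 T cells of 18 samples in 6 groups of 3. The authors aligned reads with TopHat2 2.1.1 to mm9 and counted them per gene with HTSeq 0.9.1, and the deposited values are raw counts. Whether counting used strand is not given in the sources used here. Total counts were 10758571 to 24119489 a library.

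The test covered the 17240 of 37991 genes whose mean normalized count reached 3 in any group. Counts were scaled by TMM and fitted in 1 model of 6 groups with edgeR 4.0.16 (quasi-likelihood F test, robust, R 4.3.3), with Benjamini-Hochberg adjustment over all tested genes and a threshold of 0.05. A second call added a fold of at least 2 and a mean over 50. Normalized counts are counts divided by the relative TMM-scaled library size, and levels between genes are per kb of exon. Data were simulated for 18 libraries from each gene's mean over all of them, with 200 of 17240 genes changed in NAg. In NAg against N0, 88% of 2-fold and 70% of 1.5-fold changes were recovered, and 2.47% of calls were false. The measured data had 32.1% of genes called higher and 33.4% lower in that comparison, so these rates do not carry over to it.

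The members and the lists were chosen with earlier results of these data known. The genes named were the catalytic and inducible subunits, activators, inhibitor and assembly genes, the 2 members with the largest rise and the 2 with the largest fall in each other class, members near the count minimum, and genes of the pathway and presentation lists. Alternatives were DESeq2 1.42.0, other scalings, no filter, a replicate block, marker and Y-linked covariates, fits of only the groups compared and each library left out. The comparisons of PI with Ag, and the sums on total counts and without Psmb11 and Psmc3ip, were added after the data were seen. Results of 2 genes of these lists are not reported here.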

Additional observations from a re-analysis of the deposited data

Results flagged for a closer look

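The responses differed for 6 members with Ag and 10 with PI between tolerized and naive cells by a test of the difference itself (edgeR interaction contrast, Benjamini-Hochberg adjusted over all tested genes, 3 libraries a group). Values are the log2 response in tolerized cells minus that in naive cells, with the SE. No explanation was weighed, and groups of 3 libraries were too small to test for single outlying libraries.

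For Ag, 6 members differed, 4 higher and 2 lower in tolerized cells, against 14.6% and 7.09% of all tested genes. Psmb8 differed by 0.83 ± 0.12 (adjusted p = 3.39e-05), a call kept in 21 of 21 alternative fits. Psmd1 differed by -0.32 ± 0.11 (adjusted p = 0.0366), a call kept in 10 of 21 alternative fits. Psmd5 differed by 0.53 ± 0.14 (adjusted p = 0.0061), a call kept in 19 of 21 alternative fits. Psmc2 differed by -0.34 ± 0.092 (adjusted p = 0.0104), a call kept in 21 of 21 alternative fits. Psmd10 differed by 0.67 ± 0.19 (adjusted p = 0.0144), a call kept in 20 of 21 alternative fits. Psmb10 differed by 0.99 ± 0.18 (adjusted p = 0.00036), a call kept in 21 of 21 alternative fits.

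For PI, 10 members differed, 9 higher and 1 lower in tolerized cells, against 12.7% and 7.52% of all tested genes. On total counts the split was 2 higher and 7 lower. Psmb4 differed by 0.44 ± 0.12 (adjusted p = 0.0133), a call kept in 20 of 21 alternative fits. Psmb6 differed by 0.36 ± 0.11 (adjusted p = 0.0181), a call kept in 18 of 21 alternative fits. Psmb7 differed by 0.32 ± 0.11 (adjusted p = 0.0343), a call kept in 11 of 21 alternative fits. Psmd5 differed by -0.45 ± 0.14 (adjusted p = 0.0273), a call kept in 16 of 21 alternative fits. Psmc4 differed by 0.37 ± 0.13 (adjusted p = 0.0394), a call kept in 11 of 21 alternative fits. Psma1 differed by 0.33 ± 0.11 (adjusted p = 0.0378), a call kept in 10 of 21 alternative fits. Psma4 differed by 0.36 ± 0.11 (adjusted p = 0.0213), a call kept in 17 of 21 alternative fits. Psme4 differed by 0.28 ± 0.091 (adjusted p = 0.0329), a call kept in 16 of 21 alternative fits. Psme3 differed by 0.57 ± 0.11 (adjusted p = 0.000303), a call kept in 21 of 21 alternative fits. Psme2 differed by 0.55 ± 0.099 (adjusted p = 0.000261), a call kept in 21 of 21 alternative fits.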

How the results depend on the processing

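Of 198 counts of members recomputed under alternatives other than a left-out library, 162 were within 1.5 times the reported count, and of 156 counts with a library left out, 136 were. Scaling changed most of the rest. On total counts, 4 members were lower in TAg against T0, 6 were higher and 36 lower in NPI against N0, 5 and 35 in TPI against T0, 0 lower in T0 against N0, 10 and 2 in TAg against NAg, 3 and 14 in TPI against NPI, 0 higher in TPI against TAg, 1 lower for the difference in Ag response, and 2 and 7 for that in PI response. Upper-quartile scaling gave 3 and 31 in TAg against NAg, 14 higher in TPI against NPI, and 2 and 13 for the Ag response. With marker scores as covariates, 9 were higher in NPI against N0, 10 and 9 in TPI against T0, 0 lower in T0 against N0, 10 lower in TAg against NAg, 1 and 2 in TPI against NPI, 1 higher in NPI against NAg and 0 in TPI against TAg. With Y-linked reads as a covariate, 1 was lower in T0 against N0, 3 higher in TPI against TAg and 4 higher for the PI response. DESeq2 gave 4 lower for the Ag response, and fits of only the groups compared gave 0 lower in T0 against N0, 1 lower for the Ag response, and 3 and 2 for the PI response. The cause was not tested. No share of all genes was set beside these counts, so they show only how the number of members called moved.

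Leaving out 1 library gave 1 to 2 lower for the Ag response, 6 to 14 higher (14 without T0 replicate 3 and without N0 replicate 2) and 0 to 1 lower for the PI response, 1 to 7 lower in T0 against N0 (7 without T0 replicate 3 and 1 without N0 replicate 3), 5 to 9 higher in TPI against NPI (5 without TPI replicate 1 and without TPI replicate 3) and 3 to 5 higher in TPI against TAg (3 without TPI replicate 2).

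The summed level on total counts differed by 0.61 in NAg against N0, 0.65 in TAg against T0, -0.38 in NPI against N0, -0.42 in TPI against T0, 0.020 in T0 against N0, 0.061 in TAg against NAg, -0.019 in TPI against NPI, -0.99 in NPI against NAg and -1.07 in TPI against TAg. With DESeq2 size factors it differed by 1.07 in NAg against N0, -0.15 in TAg against NAg and -0.57 in TPI against TAg. Without Psme3, the most abundant member, it differed by 0.90 in NAg against N0, 0.89 in TAg against T0, 0.058 in TPI against NPI, -0.73 in NPI against NAg and -0.56 in TPI against TAg.

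Changes of sign were followed only where a member passed in the main fit, and for Psmb8 and Psmb10 in TAg against T0. The other log2 fold changes, which did not pass, are not covered. Of the refitted values followed, 39 of 2727 changed sign under an alternative and 5 of 1914 with a library left out. On total counts these were, in NAg against N0, Psmb1 (-0.21), Psmd13 (-0.096), Psmd9 (-0.074) and Psmf1 (-0.078); in TAg against T0, Psmb1 (-0.067), Psmd9 (-0.058), Psmb10 (-0.32) and Psmf1 (-0.032). In NPI against N0 they were Psmd4 (-0.28), Psmb6 (-0.049), Psmc5 (-0.34), Psmc6 (-0.20), Psmb7 (-0.17), Psmd14 (-0.21), Psmb2 (-0.099), Psmc2 (-0.39) and Psme2 (-0.087). In TPI against T0 they were Psmd4 (-0.35), Psmb4 (-0.34), Psmc5 (-0.46), Psmc6 (-0.40), Psmb7 (-0.069), Psmd14 (-0.47), Psmb2 (-0.14), Psmc2 (-0.50), Psmc4 (-0.45), Psma4 (-0.51), Psmd7 (-0.28), Psme4 (-0.58) and Psma5 (-0.46), and in TPI against TAg Psmd11 (-0.15), Psmd8 (-0.12), Psme4 (-0.28) and Psma3 (-0.29). With marker scores as covariates Psmc5 was at -0.035 in NPI against N0 and Psmb1 at 0.059 in TPI against TAg. Psmb10, near 0 in TAg against T0, was at -0.028 under upper-quartile scaling, -0.091 with Y-linked reads as a covariate and -0.029 with only these groups. With a library left out it ranged from -0.11 (without T0 replicate 2) to 0.11 (without T0 replicate 3), and it was at -0.034 without TAg replicate 1, -0.039 without TAg replicate 2 and -0.074 without T0 replicate 1. Psmb8 was at 0.029 without T0 replicate 3.

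Replicate numbers did not pair the libraries: deviations from the group means of same-numbered libraries correlated at -0.49 to 0.24 across 10361 genes, with no comparison in which all 3 pairs were over 0.1. With the replicate block, 39 members were higher and 5 lower in NAg against N0 and 40 and 0 in TAg against T0, and no count moved by over 1.5 times. With 3 libraries a group, small changes such as those between T0 and N0 may have gone undetected.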
